A study of Mus musculus with 4 samples.

Results

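The paired immunoglobulin-like receptors of mouse myeloid cells are the activating PIR-A receptors, encoded by several near-identical *Pira* genes, and the inhibitory PIR-B, encoded by *Pirb*. Their expression was examined in cardiac neutrophils together with that of *Lilrb4a*, which encodes the related inhibitory receptor LILRB4A (gp49B). A list of 8 genes (*Pira1*, *Pira2*, *Pira6*, *Pira7*, *Pira12*, *Pira13*, *Pirb* and *Lilrb4a*) was compared with the gene names of the processed RNA-Seq files. The genes were selected on earlier counts and TPM of these same libraries, so that their values are given as a description. Of the 25655 genes in the files, 6 of these 8 were found by name. *Pira6* and *Pira7* were not among the names and were not analysed here. PIR-A pairs with the Fc receptor γ chain, encoded by *Fcer1g*, whose ITAM recruits the kinase SYK. PIR-B carries ITIMs in its cytoplasmic tail, which recruit the phosphatase SHP-1, and both receptors bind MHC class I molecules. LILRB4A also signals through ITIMs, whereas its neighbor gp49A, encoded by *Lilr4b*, lacks them.

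The 4 libraries came from CD45.2+CD11b+Ly6G+ cells sorted by flow cytometry from hearts on day 3 after myocardial infarction and reperfusion (MI/R). In WT and in *Cd300a-/-* mice alike, 1 library was of the SiglecF hi and 1 of the SiglecF lo subset, which the labels call SiglecF+ and SiglecF-. Each library pooled the hearts of 8 mice, and each group had 1 library, so that no difference had a replicate check and no P value is given. The labels give no age, and by the study's methods MI/R was done in males aged 8 to 12 weeks. *Cd300a* encodes an inhibitory receptor, and it was deleted in the germline, on the C57BL/6 background, so that all cells of *Cd300a-/-* mice lacked it. WT mice were purchased C57BL/6J mice, and the origin of the mice and the genotype cannot be told apart. Counts on genes summed to 19278243 in SiglecF hi WT, 17632989 in SiglecF hi *Cd300a-/-*, 9631901 in SiglecF lo WT and 10988619 in SiglecF lo *Cd300a-/-* neutrophils. Levels were read as TPM, which is normalized for gene length and depth. Ratios between libraries were log2((TPM + 1) ratio), which understates differences of low genes, and a gene was counted as higher or lower past 0.5. Intervals are 95% intervals from the Poisson error of the counts and cover counting error only.

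*Cd300a* had 6640 counts in SiglecF hi WT and 3024 in SiglecF lo WT neutrophils, and 27 and 28 counts in the corresponding *Cd300a-/-* libraries, as the genotype labels say. *Siglecf* was at 354 and 405 TPM in the SiglecF hi libraries of WT and *Cd300a-/-* mice and at 11.3 and 15.3 TPM in the SiglecF lo libraries. All 8 neutrophil markers examined passed a mean of 10 TPM over the 4 libraries. Their summed TPM was 27503 in SiglecF hi WT and 32526 in SiglecF hi *Cd300a-/-* neutrophils, against 154960 and 204322 in the SiglecF lo libraries, and *S100a9* was the most abundant. *Ly6g*, a marker of the sort, was at 11.1 and 41.9 TPM in the SiglecF hi libraries of WT and *Cd300a-/-* mice and at 330.4 and 889 TPM in the SiglecF lo libraries. All 12 macrophage and monocyte markers also passed 10 TPM. Their summed TPM was 22511 in SiglecF hi WT, 18652 in SiglecF hi *Cd300a-/-*, 10709 in SiglecF lo WT and 9277 in SiglecF lo *Cd300a-/-* neutrophils, with *Lyz2*, which neutrophils also express, as the most abundant gene. The libraries thus held RNA of both marker lists, in proportions that differed between subsets. In such bulk samples, fewer cells of a type and less RNA per cell cannot be told apart.

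The *Pira* genes and *Pirb* lay in a cluster on the minus strand of chromosome 7, at the positions of the files (GRCm39). *Pirb* (ENSMUSG00000058818) was at chr7:3714408-3723390 and *Pira1* (ENSMUSG00000081665) at chr7:3734629-3742888. *Pira13* (ENSMUSG00000074419) was at chr7:3819780-3828686, *Pira2* (ENSMUSG00000089942) at chr7:3839811-3848050 and *Pira12* (ENSMUSG00000074417) at chr7:3887241-3901119. *Lilra6* (ENSMUSG00000030427), for which RefSeq gives the older symbol *Pira3*, was at chr7:3911279-3918502 and is described beside the listed genes. *Lilrb4a* (ENSMUSG00000112148) was at chr10:51367052-51372707 on the plus strand, next to *Lilr4b* (ENSMUSG00000112023) at chr10:51356728-51362799. *Cd300a* (ENSMUSG00000034652) was on another chromosome, at chr11:114780867-114795480. GENCODE M21 lists *Pira1* under the name Gm15922 as a polymorphic pseudogene, and the other 7 genes of the family named here as protein coding.

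**Figure D1:**
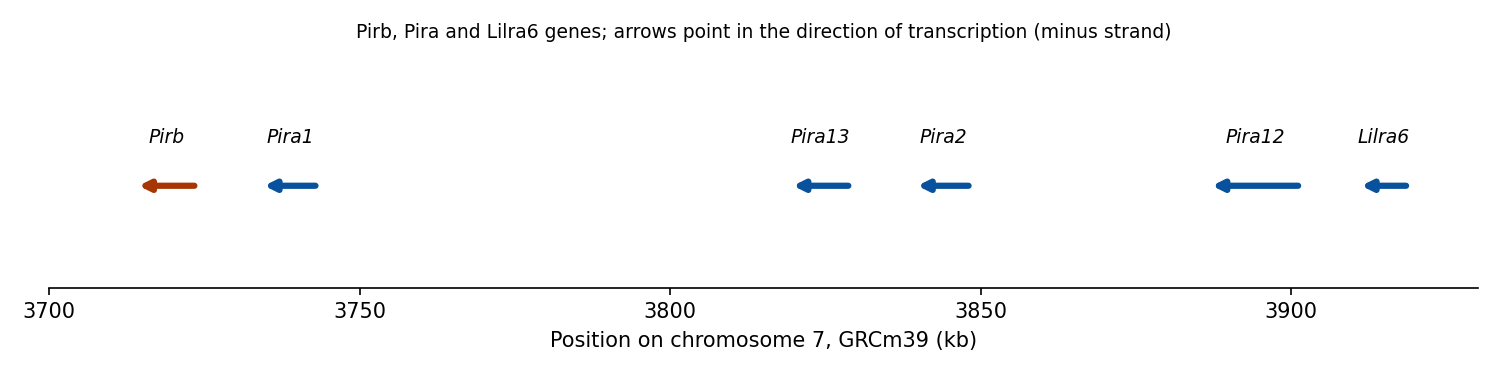
Map of the *Pirb*, *Pira* and *Lilra6* genes on chromosome 7 (GRCm39), with the position in kb on the horizontal axis. Blue arrows are *Pira* genes and *Lilra6*, the brown arrow is *Pirb*, and each arrow spans the gene and points in the direction of transcription. *Pirb* and *Pira1* are neighbors at the left end, and *Pira13*, *Pira2*, *Pira12* and *Lilra6* follow to the right.

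The genes of this family had very different TPM. In SiglecF hi WT neutrophils the order by TPM was *Lilrb4a* (275), *Pirb* (222), *Pira12* (67.0), *Pira2* (56.5), *Pira1* (32.1) and *Pira13* (4.91). In SiglecF lo WT neutrophils the order was the same at higher levels for most genes, with *Lilrb4a* at 372, *Pirb* at 264, *Pira12* at 217, *Pira2* at 96.0, *Pira1* at 23.1 and *Pira13* at 13.8 TPM. Counting intervals of neighbors in these orders did not overlap, but they cover neither the assignment of shared reads nor the gene lengths used for TPM. By counts in SiglecF hi WT neutrophils, *Pirb* (7440) stood above *Lilrb4a* (3476) and *Pira2* (1715) above *Pira12* (1252). In the *Cd300a-/-* libraries *Pira1* and *Pira13* were the lowest of the 6 genes by TPM, and *Lilrb4a* was again the highest. *Pira2* (89.3 TPM, 85.8 to 92.9) and *Pira12* (84.1 TPM, 79.7 to 88.6) could not be ordered beyond counting error in SiglecF hi *Cd300a-/-* neutrophils. In SiglecF lo *Cd300a-/-* neutrophils *Pira12* (303 TPM) stood above *Pirb* (267 TPM), and the intervals of *Pira1* (2.40 TPM, 1.76 to 3.18) and *Pira13* (1.37 TPM, 0.801 to 2.20) overlapped.

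**Figure D2:**
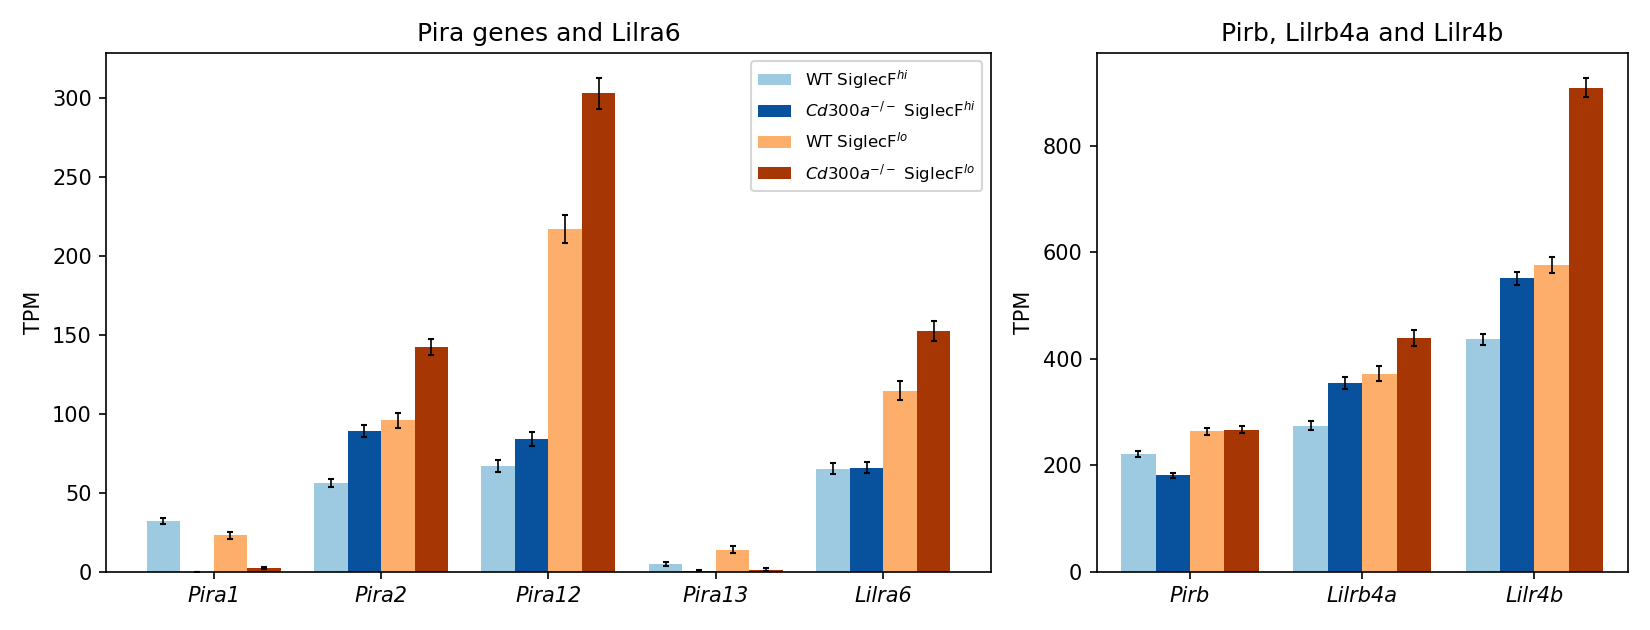
Deposited TPM (vertical axes, from 0) of the *Pira* genes and *Lilra6* (left) and of *Pirb*, *Lilrb4a* and *Lilr4b* (right) in the 4 libraries, 1 bar per library. Error bars are 95% Poisson intervals of the counts and do not show variation between mice. *Pira1* is at 32.1 TPM in the WT and at 0.0368 TPM in the *Cd300a-/-* library of SiglecF hi neutrophils, while *Pira12* reached 303 TPM in SiglecF lo *Cd300a-/-* neutrophils.

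Comparison of the genotypes asked how loss of the inhibitory receptor CD300a went along with expression of these receptors. GENCODE M21 lists *Pira1* as a polymorphic pseudogene, and its transcript is nearly identical to that of *Pira2*. Single values of both copies are thus uncertain, as described below. Among the *Pira* genes, *Pira1* was lower in both *Cd300a-/-* libraries, down to 1 count in the SiglecF hi subset. It had 974 counts (32.1 TPM) in SiglecF hi WT and 1 count (0.0368 TPM) in SiglecF hi *Cd300a-/-* neutrophils, and 411 counts (23.1 TPM) in SiglecF lo WT and 47 counts (2.40 TPM) in SiglecF lo *Cd300a-/-* neutrophils. In plain TPM it was 872-fold lower in SiglecF hi *Cd300a-/-* neutrophils, with an exact 95% counting interval of 156 to 34471 that rests on 1 count, and 9.65-fold lower (7.12 to 13.3) in SiglecF lo *Cd300a-/-* neutrophils. The log2((TPM + 1) ratio) was -4.99 (-5.13 to -4.86) in the SiglecF hi subset and -2.83 (-3.15 to -2.51) in the SiglecF lo subset. At 1 count the former interval, from the delta method, is too narrow, as the exact upper limit in SiglecF hi *Cd300a-/-* neutrophils was 0.205 TPM. With a pseudocount of 0.1, the ratio in the SiglecF hi subset was -7.88. *Pira13* was the least expressed of the copies by mean TPM over the 4 libraries, but not in SiglecF hi *Cd300a-/-* neutrophils, where *Pira1* was lower. *Pira13* had 94 counts (4.91 TPM) in SiglecF hi WT and 14 (0.817 TPM) in SiglecF hi *Cd300a-/-* neutrophils. In the SiglecF lo subset it had 155 counts (13.8 TPM) in WT and 17 (1.37 TPM) in *Cd300a-/-* neutrophils. It was thus also lower in both *Cd300a-/-* libraries, 6.01-fold (3.41 to 11.4) in the SiglecF hi subset and 10.1-fold (6.08 to 17.7) in the SiglecF lo subset in plain TPM, but its mean of 5.23 TPM did not pass the filter of 10 TPM.

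*Pira2* was higher past 0.5 in *Cd300a-/-* neutrophils of both subsets, and *Pira12* did not pass 0.5 in either. *Pira2* had 1715 counts (56.5 TPM) in SiglecF hi WT, 2429 (89.3 TPM) in SiglecF hi *Cd300a-/-*, 1707 (96.0 TPM) in SiglecF lo WT and 2794 (142 TPM) in SiglecF lo *Cd300a-/-* neutrophils. Its log2 ratio of *Cd300a-/-* to WT was 0.65 (0.56 to 0.74) in the SiglecF hi subset and 0.56 (0.48 to 0.65) in the SiglecF lo subset. *Pira12* had 1252 counts (67.0 TPM), 1405 (84.1 TPM), 2374 (217 TPM) and 3657 (303 TPM) in the same order, with ratios of 0.32 (0.21 to 0.43) and 0.48 (0.41 to 0.55). The latter passed 0.5 with TMM scaling (0.504) and with size factors (0.53). Of the copies past the filter, *Pira1* was thus lower and *Pira2* higher past 0.5 in each subset, also under the other scalings examined. *Pira1* passed the filter only through the WT libraries and was below 10 TPM in both *Cd300a-/-* libraries. In the SiglecF hi subset *Lilra6* was at 65.5 TPM with WT and 66.1 TPM with *Cd300a-/-* genotype (0.01, -0.09 to 0.12), a difference not detectable at this depth, and in the SiglecF lo subset at 115 and 152 TPM (0.41, 0.31 to 0.50).

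The sum over the 4 *Pira* genes did not pass 0.5 between genotypes. Summed counts were 4035 in SiglecF hi WT, 3849 in SiglecF hi *Cd300a-/-*, 4647 in SiglecF lo WT and 6515 in SiglecF lo *Cd300a-/-* neutrophils, and summed TPM was 160.5, 174, 350.0 and 449. The log2 ratio of *Cd300a-/-* to WT of the summed TPM was 0.12 (0.05 to 0.18) in the SiglecF hi subset and 0.36 (0.30 to 0.41) in the SiglecF lo subset. With *Pira2* and *Pira12* alone it was 0.49 and 0.51, past 0.5 in the SiglecF lo subset. Without *Pira1* it was 0.44 and 0.45, and without *Pira2* it was -0.29 and 0.27, so that in SiglecF hi neutrophils the direction of the sum turned with the copies included. *Pira1* held 24.1% of the summed *Pira* counts in SiglecF hi WT neutrophils (exact 95% binomial interval 22.8 to 25.5) and 8.84% (8.04 to 9.70) in SiglecF lo WT neutrophils. In the *Cd300a-/-* libraries its share was 0.0260% (0.000658 to 0.145) and 0.721% (0.531 to 0.958). The share of *Pira2* was 42.5% in SiglecF hi WT, 63.1% in SiglecF hi *Cd300a-/-*, 36.7% in SiglecF lo WT and 42.9% in SiglecF lo *Cd300a-/-* neutrophils, and that of *Pira12* was 31.0%, 36.5%, 51.1% and 56.1%. *Pira13* made up 2.33%, 0.364%, 3.34% and 0.261%.

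**Figure D3:**
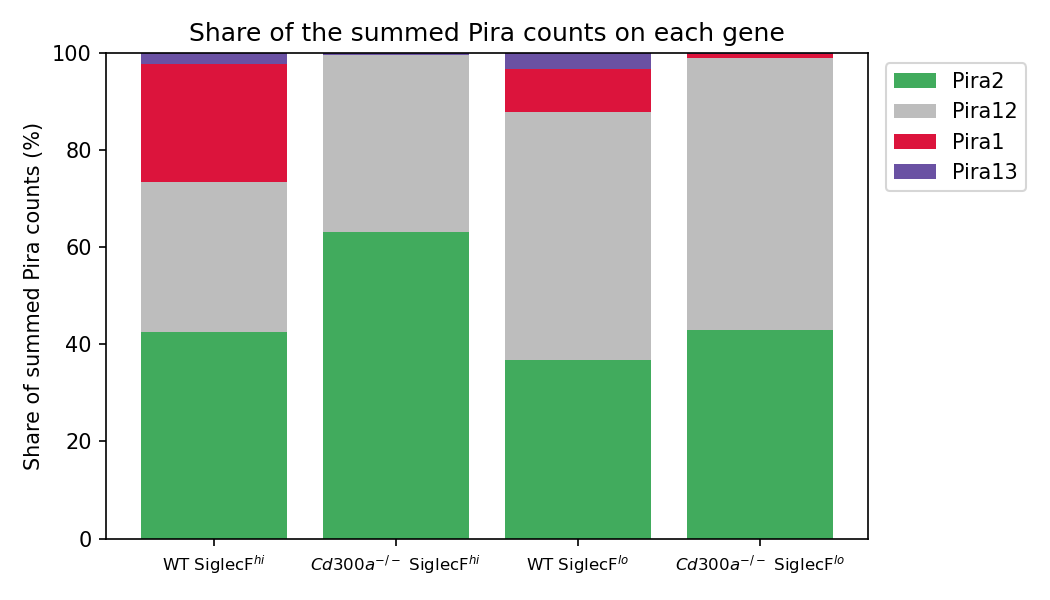
Share of each *Pira* gene in the summed *Pira* counts (vertical axis, percent) of the 4 libraries, drawn as stacked bars. *Pira1* holds 24.1% of the counts in SiglecF hi WT and 8.84% in SiglecF lo WT neutrophils and under 1% in both *Cd300a-/-* libraries, where *Pira2* and *Pira12* hold nearly all counts.

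The values of single copies can depend on how reads of shared sequence were assigned, which is not given in the sources used here. The transcripts of *Pira1* and *Pira2* in GENCODE M21 are both 3462 bases long and differ at 17 positions (99.5% identical). All 17 lie in the coding sequence of 2040 bases, the last 1727 bases are identical, and 77.9% of 3388 stretches of 75 bases hold no difference. Of the 36-base stretches of *Pira1*, 5.40% (185 of 3427) occur in the transcripts of no other gene, and the share was 4.30% for *Pira2*, 19.4% for *Pira12* and 33.3% for *Pira13*. For stretches of 75 bases these shares were 15.5%, 11.7%, 40.7% and 62.4%. The distinct part was larger for *Lilra6* (56.2% of 36-base stretches), *Pirb* (58.9%), *Lilrb4a* (46.6%) and *Lilr4b* (67.0%). *Pira1* and *Pira2* are thus the pair least separable by sequence, and their single values are uncertain. Added together, the pair had 2689 counts in SiglecF hi WT, 2430 in SiglecF hi *Cd300a-/-*, 2118 in SiglecF lo WT and 2841 in SiglecF lo *Cd300a-/-* neutrophils. Its summed TPM was 88.5, 89.4, 119 and 145, and the log2 ratio between genotypes was 0.01 (-0.06 to 0.09) in the SiglecF hi subset and 0.28 (0.20 to 0.36) in the SiglecF lo subset. The sum of the pair was not lower in *Cd300a-/-* neutrophils of either subset. In SiglecF lo WT neutrophils *Pira1* held only 411 of the 2118 counts of the pair, so that the sum says little about it there. Whether the assignment of shared reads had a part in the values of single copies was not tested.

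The 75-base stretch with the most differences between *Pira1* and *Pira2* is shown because reads over it can tell these copies apart. It covers bases 298 to 372 of both transcripts (GENCODE M21), within the coding sequence, and holds 7 of the 17 differences. The aligned stretches of the other genes are printed beside it, 5′ to 3′ on the strand of the transcript, with capitals marking bases that differ from *Pira2*.
Pira2: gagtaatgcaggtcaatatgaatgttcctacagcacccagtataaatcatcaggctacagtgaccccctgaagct
Pira1: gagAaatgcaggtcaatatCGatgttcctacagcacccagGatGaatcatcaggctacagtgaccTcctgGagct
Pira12: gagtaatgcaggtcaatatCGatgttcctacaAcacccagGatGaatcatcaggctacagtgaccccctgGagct
Pira13: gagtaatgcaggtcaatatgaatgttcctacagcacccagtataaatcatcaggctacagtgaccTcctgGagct
Pirb: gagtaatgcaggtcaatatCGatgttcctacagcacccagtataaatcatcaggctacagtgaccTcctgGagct
In this stretch *Pira12* differs from *Pira2* at 6 positions, *Pirb* at 4 and *Pira13* at 2. Over the whole coding sequence, *Pira1* was 99.2% identical to *Pira2* in aligned bases, 97.8% to *Pira12*, 96.2% to *Pira13* and 95.3% to *Pirb*. The inhibitory *Pirb*, with a coding sequence of 2523 bases, thus shares most of its coding sequence with the activating genes, and 485 positions of its alignment with *Pira1* were gaps. *Lilrb4a* shared no 36-base stretch with *Pirb* or any *Pira* gene and 34.8% with *Lilr4b*.

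The upstream sequences of these genes are shown because *Pira1* and *Pira2*, past 0.5 in opposite directions with genotype, have near-identical ones. RefSeq (GRCm38.p6) gave the promoters of 6 genes of the cluster, and 157 aligned bases upstream of the annotated starts were compared. They span 220 to 64 bases before the start of *Pira1* and *Pirb*, 248 to 92 before that of *Pira2* and 219 to 63 before that of *Pira12*. They lie on the minus strand at chr7:3739981-3740137 for *Pira1*, chr7:3845143-3845299 for *Pira2*, chr7:3898204-3898360 for *Pira12* and chr7:3720446-3720602 for *Pirb*, positions of that build and not of the files. The sequences are printed 5′ to 3′ on the strand of the gene, with capitals marking the motif GAGGAAGT, which resembles sites of the myeloid factor PU.1.
Pira1: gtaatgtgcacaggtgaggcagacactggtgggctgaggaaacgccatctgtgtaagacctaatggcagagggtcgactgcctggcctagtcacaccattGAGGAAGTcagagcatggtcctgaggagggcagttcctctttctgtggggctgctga
Pira2: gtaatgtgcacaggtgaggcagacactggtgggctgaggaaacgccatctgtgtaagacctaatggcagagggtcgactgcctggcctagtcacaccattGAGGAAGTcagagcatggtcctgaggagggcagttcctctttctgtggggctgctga
Pira12: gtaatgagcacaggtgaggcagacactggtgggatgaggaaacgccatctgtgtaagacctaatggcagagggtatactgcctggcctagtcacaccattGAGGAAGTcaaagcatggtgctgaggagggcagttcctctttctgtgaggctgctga
Pirb: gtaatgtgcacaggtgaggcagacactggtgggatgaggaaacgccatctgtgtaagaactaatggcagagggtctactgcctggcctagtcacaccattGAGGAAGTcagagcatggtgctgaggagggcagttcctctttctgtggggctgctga
*Pira1* and *Pira2* were identical over these 157 bases, *Pira12* was 95.5% and *Pirb* 97.5% identical to *Pira2*, and *Pira13* was 99.4% identical to *Pirb*. The motif, searched on both strands, occurred once in each of the 6 promoters of 300 bases (250 before and 50 after the start) and in neither of those of *Lilra5* and *Lilr4b*, which were also searched. Of all 32851 promoters of this length, 1052 (3.20%) held it. The 6 promoters are near-identical over the aligned bases, so that their matches are not independent and this share gives no test of them. A match describes the letters and shows no binding.

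The inhibitory receptor *Pirb* did not pass 0.5 between genotypes. It had 7440 counts (222 TPM) in SiglecF hi WT, 5459 (182 TPM) in SiglecF hi *Cd300a-/-*, 5185 (264 TPM) in SiglecF lo WT and 5787 (267 TPM) in SiglecF lo *Cd300a-/-* neutrophils. The log2 ratio of *Cd300a-/-* to WT was -0.29 (-0.34 to -0.24) in SiglecF hi neutrophils. In SiglecF lo neutrophils it was 0.02 (-0.04 to 0.07), a difference not detectable at this depth. The ratio in SiglecF hi minus that in SiglecF lo neutrophils was -0.30 (-0.38 to -0.23). Set against *Pirb*, the summed *Pira* TPM was 0.724 times that of *Pirb* in SiglecF hi WT, 0.959 times in SiglecF hi *Cd300a-/-*, 1.33 times in SiglecF lo WT and 1.68 times in SiglecF lo *Cd300a-/-* neutrophils. In counts, which are not divided by length, the quotient was 0.542, 0.705, 0.896 and 1.13 in the same order. Summed *Pira* thus exceeded *Pirb* in SiglecF lo WT neutrophils by TPM but not by counts. With *Lilra6* added to the *Pira* genes, the TPM quotients were 1.02, 1.32, 1.76 and 2.25, in the same order. With *Lilrb4a* added to *Pirb* they were 0.323, 0.325, 0.550 and 0.636, and without *Pira2* the quotients to *Pirb* were 0.469, 0.467, 0.963 and 1.15. The quotient to *Pirb* was thus higher in *Cd300a-/-* than in WT libraries of the same subset, but in SiglecF hi neutrophils this depended on the genes included. These latter quotients were chosen after seeing the data.

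*Lilrb4a* shares 34.8% of its 36-base stretches with *Lilr4b*, so that their single values can also depend on how shared reads were assigned. Summed over both, the log2 ratio of *Cd300a-/-* to WT was 0.35 (0.31 to 0.39) in the SiglecF hi subset and 0.51 (0.47 to 0.55) in the SiglecF lo subset. This sum was chosen after seeing the data. On its own, *Lilrb4a* did not pass 0.5 between genotypes. Its counts were 3476 (275 TPM) in SiglecF hi WT, 4021 (355 TPM) in SiglecF hi *Cd300a-/-*, 2756 (372 TPM) in SiglecF lo WT and 3590 (439 TPM) in SiglecF lo *Cd300a-/-* neutrophils, with ratios of 0.37 (0.30 to 0.43) in the SiglecF hi subset and 0.24 (0.17 to 0.31) in the SiglecF lo subset. Its neighbor *Lilr4b* was higher than *Lilrb4a* in every library, at 437 TPM in SiglecF hi WT, 552 in SiglecF hi *Cd300a-/-*, 576 in SiglecF lo WT and 909.7 in SiglecF lo *Cd300a-/-* neutrophils. The TPM of *Lilr4b* was 1.59, 1.55, 1.55 and 2.07 times that of *Lilrb4a* in this order, so that the quotient was highest in SiglecF lo *Cd300a-/-* neutrophils. The ratio of *Cd300a-/-* to WT of *Lilr4b* was 0.34 (0.29 to 0.38) in the SiglecF hi subset and 0.66 (0.61 to 0.71) in the SiglecF lo subset.

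Of the 6 genes found, 5 passed the filter of 10 TPM and *Pira13* did not. Between genotypes in SiglecF hi neutrophils, 1 of these 5 was higher (*Pira2*) and 1 lower (*Pira1*) past 0.5 in *Cd300a-/-*, where 6.78% of the 6523 genes past the filter lay past 0.5 (3.31% higher and 3.46% lower). In SiglecF lo neutrophils the same genes were higher and lower, 1 of 5 each, where 36.3% of all genes lay past 0.5 (16.4% higher and 19.9% lower). The median ratio of the 5 genes was 0.32 in the SiglecF hi subset and 0.24 in the SiglecF lo subset, against 0.04 and -0.02 over all genes. Centred on the median of all genes, the counts were again 1 higher and 1 lower, where 2.64% of all genes were higher and 4.09% lower in the SiglecF hi subset (6.73% either way) and 17.2% and 19.1% in the SiglecF lo subset (36.3% either way). *Pira1* passed the filter only through the WT libraries, where it was high, so that its count as lower is tied to the filter. As the genes were chosen with such values known, these counts describe them and support nothing further. The genotype comparisons share no library, but each uses the libraries of the subset comparisons again. Markers of several cell types also differed between genotypes. Of the 8 neutrophil markers, 3 were higher past 0.5 in SiglecF hi *Cd300a-/-* and 4 in SiglecF lo *Cd300a-/-* neutrophils, and none was lower. Of the 12 macrophage and monocyte markers, none lay past 0.5 in SiglecF hi neutrophils, and 1 was higher and 2 were lower in SiglecF lo *Cd300a-/-* neutrophils. Of 3 endothelial markers past the filter, 3 were lower in SiglecF lo *Cd300a-/-* neutrophils (median -1.64) and none lay past 0.5 in the SiglecF hi subset. Of 4 cardiac fibroblast markers, 2 were lower in SiglecF hi *Cd300a-/-* neutrophils (median of the list -0.53) and 1 was higher in the SiglecF lo subset. Of 2 cardiomyocyte markers 1, and the 1 eosinophil marker past the filter, were lower in SiglecF lo *Cd300a-/-* neutrophils. Their part in the *Pira* and *Lilrb4a* ratios was not tested.

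Between subsets, *Pira* transcripts were less abundant in SiglecF hi than in SiglecF lo neutrophils in both genotypes. Summed *Pira* TPM was 160.5 in the SiglecF hi subset and 350.0 in the SiglecF lo subset of WT mice (log2 ratio -1.12, -1.18 to -1.06) and 174 and 449 in *Cd300a-/-* mice (-1.36, -1.42 to -1.30). *Pira12* was at 67.0 TPM in the SiglecF hi subset and 217 TPM in the SiglecF lo subset of WT mice (-1.68, -1.78 to -1.58), and 84.1 and 303 TPM in *Cd300a-/-* mice (-1.84, -1.93 to -1.75). The ratios of *Pira2* were -0.76 (-0.85 to -0.66) in WT and -0.67 (-0.74 to -0.59) in *Cd300a-/-* mice, and those of *Lilra6* were -0.80 and -1.19. *Pira13* was also lower in SiglecF hi neutrophils of WT mice (-1.33, -1.65 to -1.01), whereas its interval in *Cd300a-/-* mice held 0 (-0.39, -0.91 to 0.14). *Pira1* was the exception in WT mice, at 32.1 TPM in the SiglecF hi subset and 23.1 TPM in the SiglecF lo subset (0.46, 0.30 to 0.62). In *Cd300a-/-* mice it was at 0.0368 and 2.40 TPM (-1.71, -2.02 to -1.40), which became -4.19 with a pseudocount of 0.1 and a 65.1-fold difference in plain TPM (11.1 to 2627), resting on 1 count. All genes had a median ratio of 0.53 in WT and 0.61 in *Cd300a-/-* mice, and relative to that median *Pira1* lay at -0.07 in WT mice, so that its direction there flipped with the scaling. On the same measure *Pira2* lay at -1.28 in each genotype, and *Pira13* at -1.85 in WT and -0.9995 in *Cd300a-/-* mice. Summed over *Pira1* and *Pira2*, whose single values are uncertain, the ratio before centring was -0.42 in WT and -0.69 in *Cd300a-/-* mice.

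*Pirb* and *Lilrb4a* had ratios below 0 between subsets, and *Pirb* in *Cd300a-/-* mice passed 0.5. The ratio of *Pirb* was -0.25 (-0.30 to -0.20) in WT and -0.55 (-0.61 to -0.50) in *Cd300a-/-* mice, and that of *Lilrb4a* was -0.44 (-0.51 to -0.36) and -0.31 (-0.37 to -0.24). Relative to the median of all genes, *Pirb* lay at -0.78 and -1.17, *Lilrb4a* at -0.96 and -0.92, and summed *Pira* at -1.65 and -1.98. In WT mice 2 of the 5 genes past the filter were lower past 0.5 (*Pira2* and *Pira12*) and 0 higher, where 7.47% of all genes were lower, 51.9% were higher and 59.4% lay past 0.5 either way. In *Cd300a-/-* mice 4 of 5 were lower and 0 higher, where 7.97% were lower, 56.6% were higher and 64.6% lay past 0.5 either way. *Pira1* is among these 4 but was below 10 TPM in both libraries compared. Of the 4 genes over 10 TPM in at least 1 of them, 3 were lower, where 7.99% of such genes were lower. With ratios centred on the median, 4 of 5 were lower in WT mice, where 20.9% of all genes were lower and 19.3% higher (40.2% either way), and 5 of 5 in *Cd300a-/-* mice, *Pira1* again among them, where 23.6% were lower and 21.2% higher (44.8% either way). Markers of several cell types moved with this comparison. In WT mice 6 of 8 neutrophil markers were lower and 8 of 12 macrophage and monocyte markers higher past 0.5 in SiglecF hi neutrophils, and in *Cd300a-/-* mice these numbers were 7 of 8 and 11 of 12. With centred ratios, 8 of 8 neutrophil markers were lower in both genotypes, and 7 and 5 of the 12 macrophage and monocyte markers were higher and 1 lower in each. Of 4 cardiac fibroblast markers past the filter, 4 were higher in WT and 2 in *Cd300a-/-* mice, and of 3 endothelial markers 3 were lower in WT and 3 higher in *Cd300a-/-* mice. Centred, 3 fibroblast markers were higher in WT mice and 0 higher and 1 lower in *Cd300a-/-* mice, and 3 endothelial markers were lower in WT and 1 higher in *Cd300a-/-* mice. Of 2 cardiomyocyte markers past the filter, 1 was higher in WT and 2 in *Cd300a-/-* mice. The 1 eosinophil marker past the filter was lower in WT mice (-0.63) and did not pass 0.5 in *Cd300a-/-* mice (0.39). Centred, 1 cardiomyocyte marker was lower in WT and 1 higher in *Cd300a-/-* mice, and the eosinophil marker was again lower in WT mice. The part of these markers in the subset difference of *Pira* was not tested.

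Genes whose profile over the 4 libraries was nearest to a receptor were found by the Euclidean distance of log2(TPM + 1), centred per gene, among the 6523 genes. Nearest to *Pirb* were *Tmem43* (distance 0.0804), *Pts*, *Tmem120a*, *Fyb* and *Fbxl15*. Nearest to *Lilrb4a* were *Ogfrl1* (0.0559), *Plk3*, *Themis2*, *Lmbr1l* and *Cd14*, the LPS coreceptor. These 5 genes each were the same with TMM-scaled values. Nearest to summed *Pira* were *Smox* (0.0669), *Pde7b*, *Tmc6*, *Mrgpra2b* and *Zyx*, but with TMM-scaled values 0 of these 5 remained, and *Lilra6* was among the 5 that took their place.

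Signalling partners of these receptors were examined in the same way. *Fcer1g*, the adaptor of PIR-A, was at 2917 TPM in SiglecF hi WT, 2734 in SiglecF hi *Cd300a-/-*, 2836 in SiglecF lo WT and 2571 in SiglecF lo *Cd300a-/-* neutrophils. Of the 3 adaptors listed, 0 lay past 0.5 between genotypes in SiglecF hi neutrophils and 1, *Hcst*, was lower in SiglecF lo *Cd300a-/-* neutrophils (-0.78). Of 9 kinases and associated proteins past the filter (10 listed), 2 were higher in SiglecF lo *Cd300a-/-* neutrophils, *Syk* (0.61) and *Fyn* (0.52), and 0 lay past 0.5 in SiglecF hi neutrophils. *Syk*, which acts downstream of the PIR-A adaptor, was at 191 TPM in SiglecF hi WT, 228 in SiglecF hi *Cd300a-/-*, 164 in SiglecF lo WT and 251 in SiglecF lo *Cd300a-/-* neutrophils. Of 6 phosphatases and regulators of ITIM receptors, 1 was higher in SiglecF lo *Cd300a-/-* neutrophils, *Inppl1* (0.54), and 0 lay past 0.5 in SiglecF hi neutrophils. *Inppl1* was below 10 TPM in both SiglecF lo libraries and passed the filter only through the SiglecF hi libraries. *Ptpn6*, encoding the SHP-1 bound by PIR-B, was at 422, 464, 384 and 431 TPM in the same order. Of all genes, 3.31% were higher and 3.46% lower past 0.5 in SiglecF hi *Cd300a-/-* neutrophils, and 16.4% and 19.9% in SiglecF lo *Cd300a-/-* neutrophils. The median ratio of *Cd300a-/-* to WT was -0.09 for the adaptors, 0.22 for the kinases and 0.09 for the phosphatases in the SiglecF hi subset, and -0.28, 0.27 and 0.25 in the SiglecF lo subset, against 0.04 and -0.02 over all genes. The adaptor of PIR-A and the phosphatase of PIR-B were thus expressed in all 4 libraries.

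Transcripts of reported ligands of PIR-A, PIR-B or LILRB4 were counted in the same libraries. Of 9 past the filter (12 listed), 1 was higher (*Itgav*, 0.54) and 1 lower (*B2m*, -0.66) in SiglecF lo *Cd300a-/-* neutrophils, and in SiglecF hi *Cd300a-/-* neutrophils 0 were higher and 1 was lower (*Angptl2*, -0.56). *B2m*, the light chain of MHC class I, was at 7629 TPM in SiglecF hi WT, 7497 in SiglecF hi *Cd300a-/-*, 7295 in SiglecF lo WT and 4603 in SiglecF lo *Cd300a-/-* neutrophils. The class I heavy chain genes *H2-K1* and *H2-D1* were between 880.4 and 2970 TPM in the 4 libraries and did not lie past 0.5 between genotypes in either subset. Of all genes, 16.4% were higher and 19.9% lower in the SiglecF lo subset and 3.31% and 3.46% in the SiglecF hi subset. The median ratio of the 9 genes was -0.04 in the SiglecF hi subset and -0.26 in the SiglecF lo subset, against 0.04 and -0.02 over all genes. Transcripts of the receptors and of their class I ligands were thus found in the same pools of cells.

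Other receptors of the leukocyte receptor complex, and *Lilr4b* of chromosome 10, were examined for comparison. Of 20 genes listed, 8 were found by name and 5 passed the filter (*Lilra5*, *Lilra6*, *Lair1*, *Tarm1* and *Lilr4b*, listed under an older symbol). Past 0.5, 2 of 5 were higher in SiglecF hi *Cd300a-/-* neutrophils, *Lilra5* (0.64) and *Tarm1* (0.68), 2 of 5 in SiglecF lo *Cd300a-/-* neutrophils, *Tarm1* (1.21) and *Lilr4b* (0.66), and 0 were lower in either, where 3.31% and 16.4% of all genes were higher. Their median ratio was 0.34 and 0.41. *Tarm1*, an activating receptor of myeloid cells that also pairs with the Fc receptor γ chain, was at 39.3 TPM in SiglecF hi WT, 63.5 in SiglecF hi *Cd300a-/-*, 97.8 in SiglecF lo WT and 228 in SiglecF lo *Cd300a-/-* neutrophils. Like *Pira2* and *Pira12*, it was highest in SiglecF lo *Cd300a-/-* and lowest in SiglecF hi WT neutrophils. Of 16 other inhibitory receptors past the filter (17 listed), 2 were higher (*Cd300lf*, 0.55, and *Cd33*, 0.69) and 2 lower (*Cd300a* and *Cd200r1*, -0.95) in SiglecF lo *Cd300a-/-* neutrophils, and 1 was higher (*Cd72*, 0.64) and 1 lower (*Cd300a*) in SiglecF hi *Cd300a-/-* neutrophils. *Cd300a* is the deleted gene, so that its count as lower was fixed by the design. Past 0.5 in either direction lay 6.78% of all genes in the SiglecF hi subset and 36.3% in the SiglecF lo subset. The median ratio of these 16 genes was 0.02 in the SiglecF hi subset and 0.16 in the SiglecF lo subset, against 0.04 and -0.02 over all genes.

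Markers of further cell types were also examined. Summed over 6 eosinophil markers, TPM was 116 in SiglecF hi WT, 119 in SiglecF hi *Cd300a-/-*, 173 in SiglecF lo WT and 87.9 in SiglecF lo *Cd300a-/-* neutrophils, nearly all from *Ear2*, and the defining *Epx* was at 0 in every library. Of 6 mast cell markers, *Cpa3*, *Mcpt4*, *Tpsb2* and *Cma1* were at 0, and the sum, nearly all *Kit*, was 1.54, 1.45, 1.15 and 13.2 TPM. The 5 B cell markers summed to 8.69, 14.4, 5.20 and 6.73 TPM, with *Cd79b* highest on average over the 4 libraries. The 6 dendritic cell markers summed to 5.69, 7.10, 13.5 and 2.45 TPM, with *Cd209a* highest on average through SiglecF lo WT neutrophils (10.5 TPM), and the 6 NK and T cell markers to 2.71, 7.92, 5.88 and 4.13 TPM, led by *Cd3d* with *Trbc2* at 0. B cells, mast cells, dendritic cells, macrophages and monocytes also express PIR receptors. The 5 cardiac fibroblast markers summed to 1691, 1195, 772 and 789.9 TPM (led by *Dcn*), the 5 endothelial markers to 68.4, 85.3, 125 and 40.3 TPM (*Pecam1*), and the 5 cardiomyocyte markers to 35.6, 45.7, 27.8 and 12.5 TPM (*Tnnt2* in SiglecF hi and *Actc1* in SiglecF lo libraries). Their part in the receptor values was not tested.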

How the data were processed

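RNA-Seq values of 4 libraries, 1 per group, were analysed. RNA was selected by poly(A), sequenced as paired ends and quantified by the authors with CLC Genomics Workbench. The submitters' processing notes name the build GRCm39, while the annotation release and the handling of reads that match several genes are not given in the sources used here. The authors deposited a count per gene, a whole number without normalization, for which reads or read pairs are not stated. The authors deposited TPM, normalized for length and depth, and RPKM, which was not used. The deposited signal column named CPM, counts scaled to library size by the authors, was not used. The members and all lists were chosen with earlier results of these data known. Genes named are the members, genes of fixed pathway and marker lists that lay past 0.5 (up to 4 per list), *Cd300a*, and the 5 genes nearest in profile to summed *Pira*, *Pirb* and *Lilrb4a*. *Fcer1g*, *Ptpn6*, *H2-K1*, *H2-D1*, *Lair1* and single markers outside this rule were named after their values were seen. Ratios were log2((TPM + 1) ratio) for genes with a mean over 10 TPM, with 95% Poisson intervals by the delta method, exact conditional intervals for plain TPM folds and exact binomial intervals for shares. Alternatives were a pseudocount of 0.1, other filters, a threshold of 1, TMM scaling (edgeR 4.0.16, R 4.3.3), size factors (DESeq2 1.42.0), centring on the median and other sums of genes. Sequences of GENCODE M21 transcripts, matched by gene identifier, were compared with Biopython 1.88, and RefSeq promoters (GRCm38.p6) were matched by symbol. A planned comparison of proteins was not run. Python 3.11.15, numpy 2.4.6, pandas 2.3.3, scipy 1.17.1 and matplotlib 3.10.9 were used, and the calculations were tested on simulated counts.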

Additional observations from a re-analysis of the deposited data

Results flagged for a closer look

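*Pira1* stood apart because its difference between subsets had opposite directions in the genotypes. The log2((TPM + 1) ratio) of SiglecF hi to SiglecF lo neutrophils was 0.46 in WT and -1.71 in *Cd300a-/-* mice. The *Cd300a-/-* value rests on 1 count in SiglecF hi and 47 counts in SiglecF lo neutrophils, and it became -4.19 with a pseudocount of 0.1. Relative to the median of all genes the ratios were -0.07 and -2.32, so that the WT ratio flipped with the scaling. *Pira1* and *Pira2* are also the pair least separable by sequence, and their single values are uncertain. Summed over this pair, the ratio was -0.42 in WT and -0.69 in *Cd300a-/-* mice, lower in SiglecF hi neutrophils of both genotypes. The difference between genotypes was not tested, because each group had 1 library.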

How the results depend on the processing

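With 1 library per group, replicates could not be left out. The labels give no replicate numbers, and no paired analysis was run. An additive fit of genotype and subset over the 4 libraries was not run. The planned comparison of proteins was not run. The sums with *Lilra6*, of *Pira1* and *Pira2* alone and of *Pira2* and *Pira12* alone, the quotients with *Lilrb4a* or without *Pira2*, the count among genes over 10 TPM in a compared library, and the exact intervals of plain TPM folds, were chosen after seeing the data. The log2 ratio of summed *Pira* between genotypes was 0.36 in the SiglecF lo subset and 0.12 in the SiglecF hi subset. Without *Pira1* it was 0.45 and 0.44, without *Pira2* 0.27 and -0.29, without *Pira12* 0.14 and -0.050, with *Pirb* 0.22 and -0.10, with *Pirb* and *Lilra6* 0.25 and -0.085, for *Pira1* and *Pira2* alone 0.28 and 0.014, and for *Pira2* and *Pira12* alone 0.51 and 0.49. Counts scaled to depth alone gave 0.30 in SiglecF lo neutrophils. Between subsets it was -1.12 in WT and -1.36 in *Cd300a-/-* mice, and it became -1.51 and -1.81 with TMM, -1.58 and -1.89 with size factors, -1.65 and -1.98 with centring, and -1.20 and -1.44 with counts scaled to depth alone. Without *Pira2* it was -1.28 and -1.84, without *Pira12* -0.50 and -0.69, with *Pirb* -0.68 and -1.01, with *Pirb* and *Lilra6* -0.70 and -1.04, and for *Pira1* and *Pira2* alone -0.42 and -0.69. In WT mice it was -1.34 without *Pira1*, -1.34 for *Pira2* and *Pira12* alone and -1.04 with *Lilra6*. In all of these settings the sum was lower in SiglecF hi than in SiglecF lo neutrophils. These shifts follow from the genes summed or the scaling used. The number of genes past 0.5 between genotypes was 2367 in SiglecF lo neutrophils, and became 5178 with a mean TPM over 1, 1516 with TPM over 10 in both libraries and 611 with a threshold of 1. In SiglecF hi neutrophils it was 442, and became 1716 with a mean TPM over 1, 709 with TPM over 10 in at least 1 library and 46 with a threshold of 1. Between subsets it was 3873 in WT and 4212 in *Cd300a-/-* mice, and became 7317 and 7619 with a mean TPM over 1 and 1520 and 1975 with a threshold of 1. Of 96 values for single genes, 42 moved beyond their counting interval. Depth limits *Pira1* in SiglecF hi *Cd300a-/-* neutrophils, at 1 count, and *Pira13* in both *Cd300a-/-* libraries.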
